A study of Homo sapiens with 20 samples.

Results

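The 10 transcripts described here are hosts of small nucleolar RNAs (snoRNAs): GAS5, SNHG1, SNHG5, SNHG8, SNHG10, SNHG12, SNHG15, SNHG32, ZFAS1 and TAF1D. They were taken by gene name from a count table of 36601 genes, and all 10 were among the 12149 genes with enough counts to be tested. The counts were made from 20 libraries, 4 for each of 5 groups, of the breast cancer cell line MDA-MB-231, an established human line. Untreated cells received neither nanoparticles nor laser light. Cells of the other 4 groups were kept with biomimetic nanoparticles at 0.1 mg/ml for 4 h, and 1 of these groups, here called nanoparticles alone, was not lit. The remaining 3 groups were lit for 10 min with an 808 nm laser held at 46, 50 or 54 °C. RNA of 2 wells was pooled for each sample. Cells lit without nanoparticles were not analysed here, and effects of heat and of light cannot be told apart. Separate cultures for the replicates are not stated in the labels, so a p-value reflects only how these samples spread, and that spread may be technical.

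snoRNAs guide chemical changes on other RNAs, above all ribosomal RNA. The C/D family directs ribose methylation, the H/ACA family directs the conversion of uridine to pseudouridine, and small Cajal body RNAs do the same for the RNAs of the spliceosome. Most human snoRNAs are cut out of the introns of a host gene, and many hosts begin with a run of pyrimidines, as ribosomal protein mRNAs do. The spliced RNA of several noncoding hosts is known to be removed by nonsense-mediated decay when ribosomes engage it.

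On GRCh38 the annotations place 42 snoRNAs inside the spans of the 10 hosts, 14 of them from RefSeq entries without a given strand. Of the 42, 28 belong to the C/D family, 12 to the H/ACA family and 1 is a small Cajal body RNA, while 1 has no family name. GAS5 holds 11, SNHG1 9, TAF1D 8, SNHG12 4 and ZFAS1 3. SNHG5 and SNHG32 hold 2 each, and SNHG8, SNHG10 and SNHG15 hold 1 each. In 35 of the 42 the snoRNA touches an exon of at least 1 annotated transcript of its host. None of the 42 has an entry of its own in the count table, so reads from a retained intron or from a snoRNA with a poly(A) tail cannot be told apart from reads of the host.

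The snoRNAs inside SNHG12 and SNHG10, and 1 of those inside TAF1D, are printed because these 3 hosts carry the response to heating. The letters are those of the GENCODE 29 transcripts on GRCh38, 5′ to 3′, and all 6 lie on the minus strand. Capitals mark boxes found on the RNA strand. In the SNORA and SCARNA sequences these are the match to ANANNA nearest to the middle (the H box, searched between 35 and 65% of the length) and an ACA that begins 6 bases before the end. In SNORD99 the capitals are the last CTGA within the final 15 bases, the D box.
SNORA16A: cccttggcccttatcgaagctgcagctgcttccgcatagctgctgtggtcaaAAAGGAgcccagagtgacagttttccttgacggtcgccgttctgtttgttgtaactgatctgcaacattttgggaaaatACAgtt
SNORA44: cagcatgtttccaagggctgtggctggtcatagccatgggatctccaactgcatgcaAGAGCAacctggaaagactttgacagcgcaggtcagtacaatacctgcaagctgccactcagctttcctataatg
SNORA61: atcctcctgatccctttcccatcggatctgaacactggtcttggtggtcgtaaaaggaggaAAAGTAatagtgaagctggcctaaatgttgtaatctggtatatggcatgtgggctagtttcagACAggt
SNORD99: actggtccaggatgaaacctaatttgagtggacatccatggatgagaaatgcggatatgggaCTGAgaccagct
SCARNA13: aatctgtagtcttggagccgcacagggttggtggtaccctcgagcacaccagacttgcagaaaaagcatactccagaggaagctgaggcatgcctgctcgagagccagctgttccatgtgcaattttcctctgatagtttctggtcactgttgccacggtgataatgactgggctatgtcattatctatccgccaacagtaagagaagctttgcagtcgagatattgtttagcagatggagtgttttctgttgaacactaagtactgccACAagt
SNORA40: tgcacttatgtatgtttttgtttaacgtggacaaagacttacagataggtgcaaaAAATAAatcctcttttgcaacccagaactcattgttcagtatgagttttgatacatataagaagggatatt
The first 4 lie in SNHG12, SNORA16A at chr1:28580920-28581056, SNORA44 at chr1:28580381-28580512, SNORA61 at chr1:28579764-28579893 and SNORD99 at chr1:28578749-28578822. SNORA61 touches an exon of 5 of the 17 annotated SNHG12 transcripts, and SNORA44 and SNORA16A touch an exon of 4 each. The transcripts that hold these 3 whole are all of the retained-intron type, and SNORD99 touches no exon. SCARNA13 lies in SNHG10 at chr14:95533355-95533629 and touches no exon of its 4 transcripts. SNORA40 lies in TAF1D at chr11:93735111-93735236 and is held whole by 4 of 22 transcripts. The terminal ACA was found in 8 of the 11 SNORA sequences inside the hosts and in 76.2% of the 147 in the annotation, and the H box in 10 of the 11 and in 93.9%. The D box was found in all 15 SNORD sequences inside the hosts and in 92.4% of the 278 in the annotation. The C box TGATGA, searched in the first 25 bases, was found in 11 of the 15 and in 69.4% of the 278, and these letters are not in that window of SNORD99.

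The RefSeq starts of 6 hosts are printed to compare those called higher at 50 °C with those that differed between replicates. Each window covers the 10 bases before the RefSeq start and 20 bases from it on (GRCh38.p14), and capitals mark the longest run of C and T on the RNA strand.
SNHG12: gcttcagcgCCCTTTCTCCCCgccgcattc
TAF1D: aatagccaaCCCTTTTCTTCCgcacggttg
SNHG10: cttatgccggagCCTCatcctactgcctta
GAS5: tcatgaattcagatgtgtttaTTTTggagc
SNHG32: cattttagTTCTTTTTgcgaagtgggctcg
ZFAS1: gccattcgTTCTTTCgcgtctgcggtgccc
The windows lie on the minus strand at chr1:28581854-28581883 for SNHG12, chr11:93741476-93741505 for TAF1D, chr14:95534853-95534882 for SNHG10 and chr1:173869026-173869055 for GAS5. They lie on the plus strand at chr6:31834906-31834935 for SNHG32 and chr20:49278632-49278661 for ZFAS1. The RefSeq start of GAS5 lies outside its GENCODE span. Of the 6 printed windows only that of SNHG10 covers the outermost GENCODE start of its host. Those of SNHG12, TAF1D, SNHG32 and ZFAS1 lie further inside the span, for TAF1D far from its outermost start at chr11:93784391. The windows of SNHG1, SNHG5 and SNHG8, not printed, miss the outermost start as well. Except in SNHG10, the runs therefore describe RefSeq starts and not the outermost GENCODE starts. A window was matched for 9 of the 10 hosts, all but SNHG15. SNHG12 and TAF1D had runs of 12 bases, a length reached in 2.51% of the 35116 windows of all genes, whose median run was 4. The run was 8 bases in SNHG32 (12.7% of windows have one as long), 7 in SNHG1 and ZFAS1 (19.3%), 6 in SNHG5 and SNHG8 (30.4%) and 4 in SNHG10 and GAS5 (70.7%).

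A library held 2401180 to 7710977 counts in total. Depth differed by group: libraries at 54 °C held 6154155 to 7710977 counts, and the deepest library of any other group held 4952111. The 10 hosts made up 0.247 to 0.358% of counts with nanoparticles alone (mean 0.302%) and 0.323 to 0.463% at 50 °C (mean 0.391%). These ranges overlapped. The mean was 0.329% in untreated cells, 0.351% at 46 °C and 0.329% at 54 °C. The line markers VIM and CD44 ranged from 1340 to 2070 and from 551 to 797 CPM, and ESR1, PGR and FOXA1 had a median of 0. CPM are counts relative to library size, here scaled by TMM, the trimmed mean of M values of edgeR. They count 3′ ends and are not divided by length, so they are compared between groups and not between genes. In bulk samples fewer cells and less RNA per cell cannot be told apart.

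At 50 °C, 3 of the 10 hosts rose against nanoparticles alone: SNHG12, SNHG10 and TAF1D. None fell. Calls were made where edgeR's quasi-likelihood test gave an adjusted p under 0.05, with the Benjamini-Hochberg method applied across the whole table, and 0.527% of all tested genes were called higher and 0.691% lower. All 10 hosts had a positive log2 fold change, with a median of 0.54 beside 0.018 for all tested genes. The 10 were chosen with earlier results of these data known, so these counts do not describe snoRNA hosts in general. Among 18 other tested noncoding hosts 0 were called, with a median of 0.26.

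SNHG12, a noncoding RNA annotated at chr1:28578538-28583132, hosts 3 H/ACA snoRNAs and SNORD99. Its level in replicates 1 to 4 was 41.4, 21.2, 25.4 and 30.6 CPM in untreated cells and 32.8, 37.6, 43.3 and 32.9 CPM with nanoparticles alone. It was 29.5, 55.8, 19.2 and 23.9 CPM at 46 °C, 259, 387, 399.9 and 352 CPM at 50 °C and 41.9, 50.0, 72.3 and 96.0 CPM at 54 °C. Every library at 50 °C lay above every other library of the series. The other groups overlapped, except that all values at 54 °C lay just above those of untreated cells. The log2 fold change at 50 °C was 3.26 ± 0.30 (SE, n = 4 against 4) with a 95% interval of 2.62 to 3.89 (edgeR adjusted p = 1.23e-06), and it was 3.20 within replicates 1 and 2 and 3.31 within replicates 3 and 4.

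SNHG10, the host of SCARNA13, is annotated at chr14:95532297-95534872. Its level was 15.3, 1.56, 12.4 and 11.2 CPM in untreated cells and 17.7, 9.40, 12.2 and 5.40 CPM with nanoparticles alone. It was 7.05, 9.25, 13.3 and 19.9 CPM at 46 °C, 52.6, 62.5, 82.8 and 67.1 CPM at 50 °C and 12.4, 15.3, 17.3 and 16.3 CPM at 54 °C. The libraries at 50 °C again stood above all others, and the other 4 groups overlapped. The log2 fold change at 50 °C was 2.57 ± 0.39 (SE, n = 4 against 4; edgeR adjusted p = 3.03e-05). Within replicates 1 and 2 it was 2.09 and missed the threshold (edgeR adjusted p = 0.0509), and within replicates 3 and 4 it was 3.11 (edgeR adjusted p = 1.30e-05). SNHG10 had between 5 and 329 counts in a library, so its low values carry a large counting error.

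TAF1D encodes a subunit of the selectivity factor that brings RNA polymerase I to ribosomal RNA genes, and is annotated at chr11:93729948-93784391 with 6 H/ACA and 2 C/D snoRNAs. It stood at 281, 242, 304 and 279 CPM in untreated cells and 222, 228.5, 349 and 295 CPM with nanoparticles alone. It stood at 295, 279, 321 and 395 CPM at 46 °C, 515.5, 629, 847 and 799 CPM at 50 °C and 336, 339.9, 552 and 566 CPM at 54 °C. The values at 50 °C lay above all values at 46 °C and without light, and overlapped those at 54 °C. The log2 fold change at 50 °C was 1.35 ± 0.19 (SE, n = 4 against 4; edgeR adjusted p = 1.37e-04), with 1.34 within replicates 1 and 2 and 1.35 within replicates 3 and 4.

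**Figure D1:**
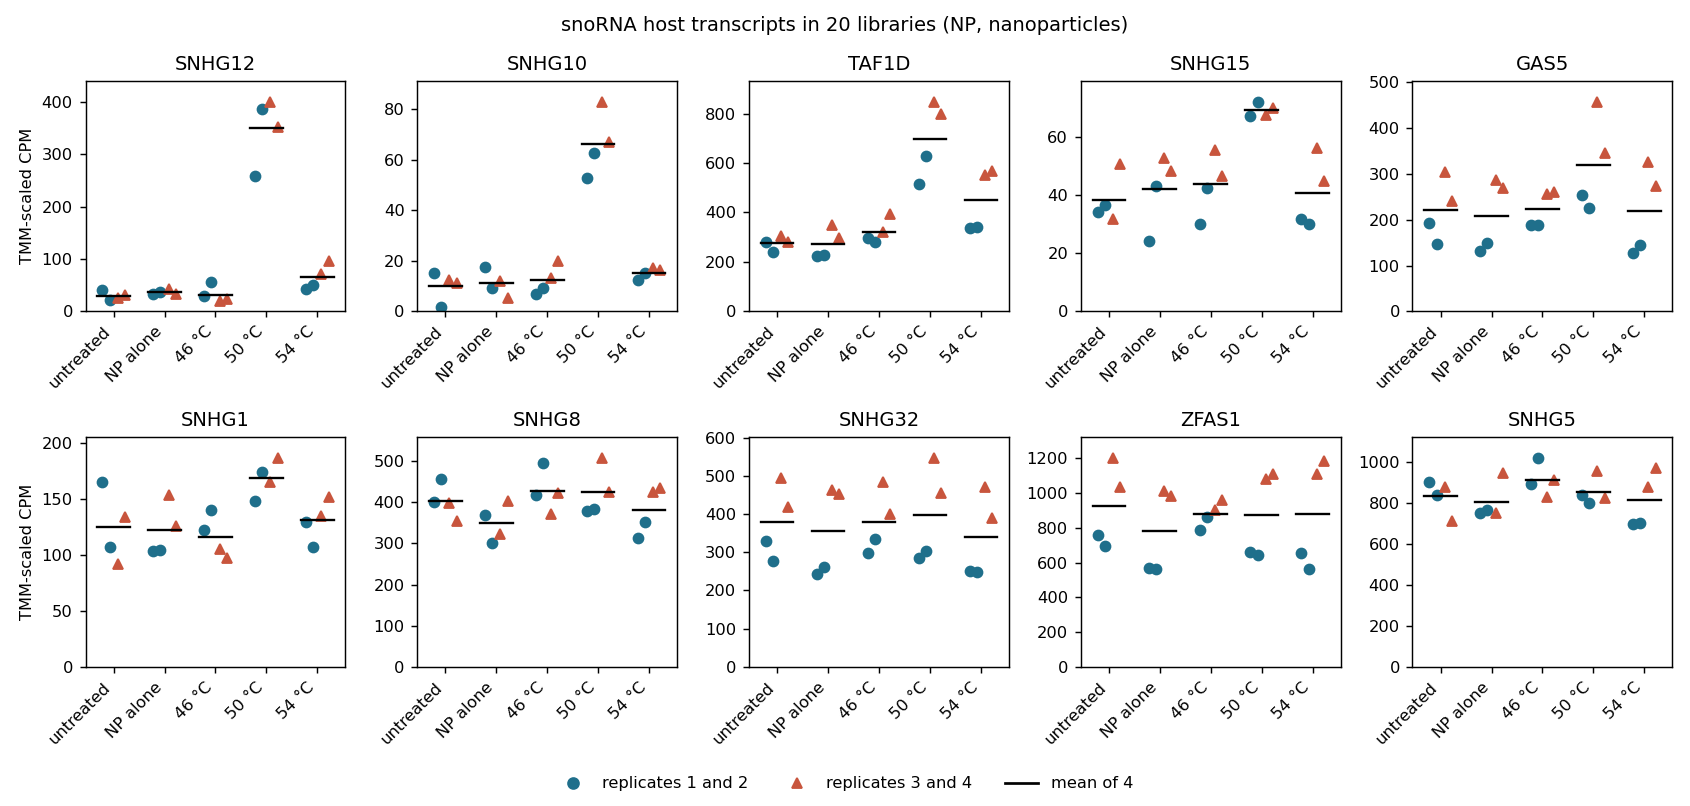
Level of each host in TMM-scaled CPM (vertical axis, a separate scale from 0 for each gene) in the 5 groups (horizontal axis); circles are libraries of replicates 1 and 2, triangles those of replicates 3 and 4, and the line is the mean of 4. SNHG12 and SNHG10 stand apart at 50 °C, and in GAS5, SNHG32 and ZFAS1 the triangles lie above the circles in all 5 groups.

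SNHG15, the host of SNORA9, missed the threshold although its groups did not overlap. Its level was 24.3, 43.1, 52.9 and 48.2 CPM with nanoparticles alone and 67.3, 72.0, 67.5 and 69.9 CPM at 50 °C. All values at 50 °C lay above all those with nanoparticles alone in 4 hosts, SNHG12, SNHG10, TAF1D and SNHG15, and in 4.2% of tested genes. The log2 fold change of SNHG15 was 0.72 ± 0.24 (SE; edgeR adjusted p = 0.129), with 1.04 within replicates 1 and 2 and 0.44 within replicates 3 and 4.

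GAS5, known to accumulate in growth-arrested cells, had a log2 fold change of 0.62 ± 0.35 at 50 °C (SE; edgeR adjusted p = 0.568). SNHG1, the host of a C/D cluster, had 0.47 ± 0.16 (edgeR adjusted p = 0.169). SNHG8, the host of SNORA24, had 0.28 ± 0.13 (edgeR adjusted p = 0.362). The smallest changes were those of the C/D hosts SNHG32 (0.16 ± 0.30), ZFAS1 (0.16 ± 0.29) and SNHG5 (0.09 ± 0.11), whose 95% intervals reached no higher than 0.79. With a term for replicates 3 and 4 against 1 and 2 in the fit, GAS5 (0.65, edgeR adjusted p = 2.38e-04) and SNHG15 (0.75, edgeR adjusted p = 0.0336) were called as well, which made 5 hosts higher at 50 °C. That fit was chosen after the data were seen.

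**Figure D2:**
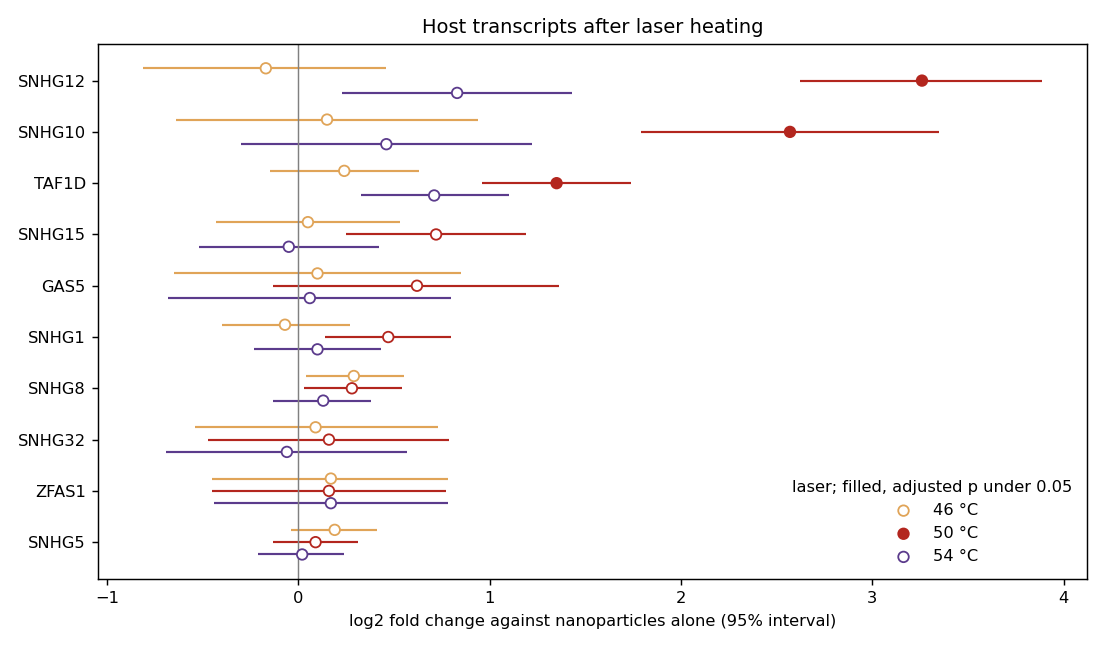
Log2 fold change of each host (horizontal axis) at 46, 50 and 54 °C against nanoparticles alone, with 95% intervals from the fit; filled points have an adjusted p under 0.05. Only SNHG12, SNHG10 and TAF1D have filled points, all at 50 °C.

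At 46 °C edgeR called 0 of the 10 hosts, beside 0.963% of tested genes. SNHG8 was the 1 host with an unadjusted p under 0.05, and DESeq2 called 0. The log2 fold changes ran from −0.17 to 0.29 with a median of 0.12. SNHG8 had the highest, 0.29 ± 0.13 (SE; edgeR adjusted p = 0.335), and SNHG12 the lowest, −0.17 ± 0.30. ZFAS1 had 0.17 ± 0.29 over all 4 replicates. Within replicates 1 and 2 ZFAS1 had 0.54 (edgeR adjusted p = 0.00187), and within replicates 3 and 4 it had −0.10.

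At 54 °C edgeR called 0 of the 10 as well, beside 0.123% of tested genes, and the median was 0.12. SNHG12 and TAF1D, 2 of the 10, had an unadjusted p under 0.05, and DESeq2 called TAF1D. SNHG12 had 0.83 ± 0.29 with a 95% interval of 0.23 to 1.43 (edgeR adjusted p = 0.651). Within replicates 3 and 4 SNHG12 had 1.16 (edgeR adjusted p = 0.00572), beside 0.38 within replicates 1 and 2. TAF1D had 0.71 ± 0.19 (SE; edgeR adjusted p = 0.22), and with the term for replicates 3 and 4 against 1 and 2 it was called at 0.70 (edgeR adjusted p = 4.36e-06). SNHG10 had 0.46 ± 0.38 (edgeR adjusted p = 0.978).

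The steps between temperatures were tested directly. They share the libraries at 50 °C with each other and with the comparison above. From 46 to 50 °C, 3 hosts rose: SNHG12 by 3.43 ± 0.31 (SE; edgeR adjusted p = 3.68e-07), SNHG10 by 2.42 ± 0.39 (edgeR adjusted p = 6.27e-05) and TAF1D by 1.11 ± 0.19 (edgeR adjusted p = 0.0012) on the log2 scale, where 0.584% of tested genes were called higher. In 5 hosts all values at 50 °C lay above all at 46 °C, as in 3.7% of tested genes. The other two were SNHG1, with 0.54 ± 0.17 (edgeR adjusted p = 0.107), and SNHG15, with 0.67 ± 0.24 (edgeR adjusted p = 0.195).

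From 50 to 54 °C, 2 hosts fell, where 0.14% of tested genes were called lower. SNHG12 fell by 2.43 ± 0.29 (SE; edgeR adjusted p = 6.30e-05) and SNHG10 fell by 2.11 ± 0.37 (edgeR adjusted p = 8.62e-04) on the log2 scale. Within replicates 1 and 2 the difference of SNHG10 was −2.05 and missed the threshold (edgeR adjusted p = 0.13). SNHG15 (−0.77 ± 0.23, edgeR adjusted p = 0.284) and TAF1D (−0.64 ± 0.19, edgeR adjusted p = 0.313) were not called. TAF1D was called lower with DESeq2 (DESeq2 adjusted p = 0.0409) and with no filter (edgeR adjusted p = 6.99e-04), but not with RLE factors or library totals. All values at 54 °C lay below all at 50 °C in SNHG12, SNHG10 and SNHG15, and in 2.65% of tested genes. With the added term for replicates 3 and 4 against 1 and 2, GAS5, SNHG15 and TAF1D were called lower too, which made 5.

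Nanoparticles without light left no called change in the hosts. Against untreated cells edgeR called 0 of the 10 hosts and 0% of tested genes in either direction, while 479 of the 12149 genes had an unadjusted p under 0.05, and DESeq2 also called 0 hosts and 0 genes. The log2 fold changes of the hosts ran from −0.24 to 0.29, with a median of −0.04.

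A partly different set of hosts differed between replicates. Replicates 3 and 4 exceeded replicates 1 and 2 in 4 of the 10 hosts and were lower in none, where 4.17% of tested genes were called higher and 4.65% lower. The labels give this division no meaning. It was known from earlier results on these libraries, and the 10 hosts were chosen with such results known. All 10 differences were positive, with a median of 0.34 beside −0.001 for all tested genes.

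GAS5 stood at 193, 148, 305 and 241.5 CPM in replicates 1 to 4 of untreated cells and at 131, 149, 287 and 269 CPM with nanoparticles alone. It stood at 189, 189, 255.5 and 261 CPM at 46 °C, 253, 225, 457 and 344 CPM at 50 °C and 128, 144, 326 and 273 CPM at 54 °C. In each of the 5 groups both values of replicates 3 and 4 lay above both of replicates 1 and 2. The difference was 0.80 ± 0.08 on the log2 scale (SE; edgeR adjusted p = 1.65e-13).

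SNHG32, the host of SNORD48 and SNORD52, stood at 331, 278, 493 and 419 CPM in untreated cells and 244, 262, 463 and 453.5 CPM with nanoparticles alone. It stood at 299, 335, 483.5 and 401 CPM at 46 °C, 286, 302, 548 and 454 CPM at 50 °C and 252, 247, 472 and 389.7 CPM at 54 °C. Replicates 3 and 4 were again above replicates 1 and 2 in every group, by 0.70 ± 0.07 (SE; edgeR adjusted p = 1.01e-13).

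ZFAS1, the host of the SNORD12 RNAs, stood at 758, 695, 1204 and 1037 CPM in untreated cells and 570.0, 563, 1009 and 984 CPM with nanoparticles alone. It stood at 785.5, 862, 901 and 959 CPM at 46 °C, 658, 643, 1078 and 1107 CPM at 50 °C and 656, 565, 1109 and 1185 CPM at 54 °C. The same order held in all 5 groups, with the smallest gap at 46 °C, and the difference was 0.66 ± 0.06 (SE; edgeR adjusted p = 1.03e-13).

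TAF1D was the one host called both at 50 °C and between replicates, where it differed by 0.45 ± 0.07 (SE; edgeR adjusted p = 2.27e-07). SNHG15 had 0.39 ± 0.14 (edgeR adjusted p = 0.0548) and SNHG10 0.29 ± 0.23. SNHG5, SNHG8, SNHG12 and SNHG1 had 0.04 to 0.08. Whether the response to heating differed between the replicates was tested by an interaction. None of the 10 hosts was called at 46, 50 or 54 °C, beside 0%, 0% and 0.00823% of tested genes. At 46 °C 5 of the 10 hosts had an unadjusted p under 0.05, as did 660 of the 12149 genes. ZFAS1 had the smallest p of the hosts there, with an interaction of −0.64 ± 0.15 (SE; edgeR adjusted p = 0.23). At 50 °C 0 of the 10 hosts had an unadjusted p under 0.05 and at 54 °C 1 did, beside 531 and 521 of all tested genes. The SE of the hosts' interactions at 50 °C ran from 0.15 to 0.69, widest in SNHG10.

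**Figure D3:**
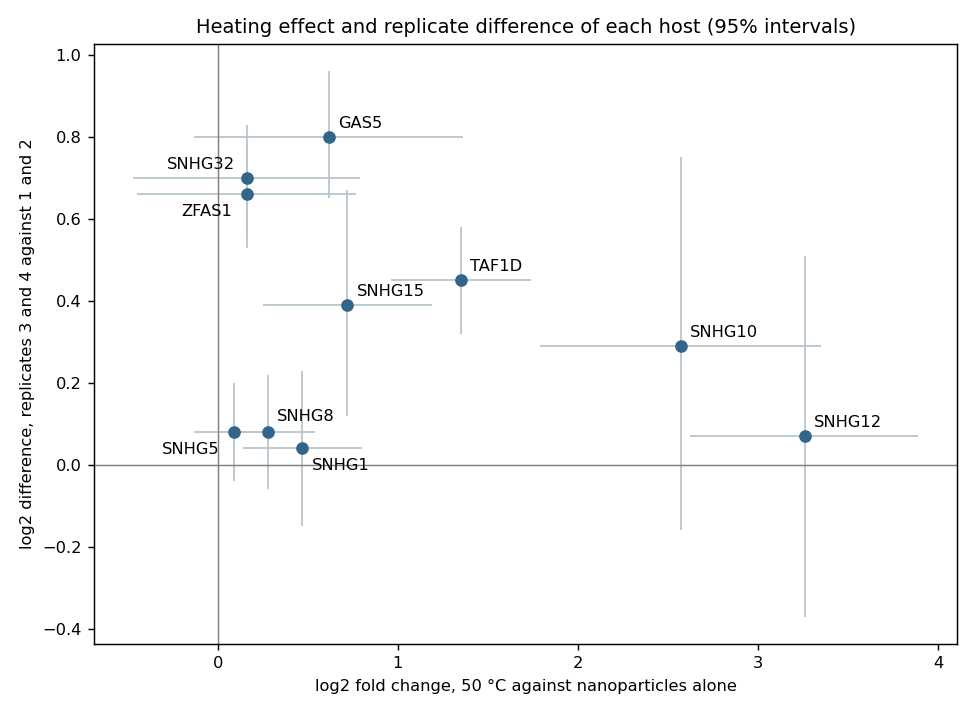
Log2 fold change at 50 °C against nanoparticles alone (horizontal axis) and log2 difference of replicates 3 and 4 from 1 and 2 (vertical axis) for the 10 hosts, with 95% intervals from the fits. SNHG12 and SNHG10 lie far to the right, GAS5, SNHG32 and ZFAS1 lie at the top left, and TAF1D is raised on both axes.

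Over the 20 libraries, which share the group and replicate structure, the log2 levels of SNHG32 and ZFAS1 correlated at a Pearson r of 0.92 and those of GAS5 and SNHG32 at 0.91. SNHG12 correlated with TAF1D at 0.86 and with SNHG10 at 0.84. Among 8171 other genes the one most like SNHG12 was CSKMT (r = 0.965), then EIF4A2 (0.898) and MTRNR2L1 (0.895). CSKMT was also the one most like SNHG10 (0.809), closely followed by MTRNR2L12 (0.807), and EIF4A1 the one most like TAF1D (0.891). MTRNR2L1 and MTRNR2L12, with 0 annotated snoRNAs each, had log2 fold changes of 2.36 and 1.68 at 50 °C against nanoparticles alone. For GAS5 it was LAMB3 (0.922), followed by the host SNHG29 (0.910).

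Genes outside the 10 were compared by the position of any snoRNA annotated inside them. The 446 snoRNAs added from RefSeq had no strand given and were matched to genes of both strands. Some of them may therefore lie opposite the gene they are counted in. Among other tested genes, 87 held a snoRNA that touches an exon, and 7 of them (8.05%) were called higher at 50 °C and 1 lower, with a median log2 fold change of 0.17. Of 346 genes with snoRNAs in introns only, 1 was called higher and 1 lower, and of 11670 genes without one 51 (0.437%) were higher and 82 lower. Among the 7 were AC007952.4 (3.88, SNORD3D), CSKMT (SNORA57), TMEM107 (2.02, SNORD118), EIF4A2 (1.5), EIF4A1 (0.44) and RPSA (0.40), and EIF4G2 was lower (−0.41). These were named after their values were seen. Whether each gene is the host from which its snoRNA is cut was not tested, AC007952.4 and TMEM107 included. No GENCODE snoRNA has an entry of its own among the counts, so its reads cannot be told apart from those of the gene around it. At 46 °C 3 of the 87 (3.45%) were called higher, among them AC007952.4 (2.37) and TMEM107 (0.99), beside 0.591% of genes without a snoRNA. From 50 to 54 °C, 5 of the 87 (5.75%) were called lower and none higher, among them CSKMT (−2.36) and EIF4A2 (−1.48), beside 0.0771% of genes without a snoRNA and 0 of the 346. SNHG10, whose SCARNA13 touches no exon, rose at 50 °C, and SNHG1, with 9 snoRNAs that touch an exon, was not called. The number and position of snoRNAs did not sort the 10 hosts into those that were called and those that were not.

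**Figure D4:**
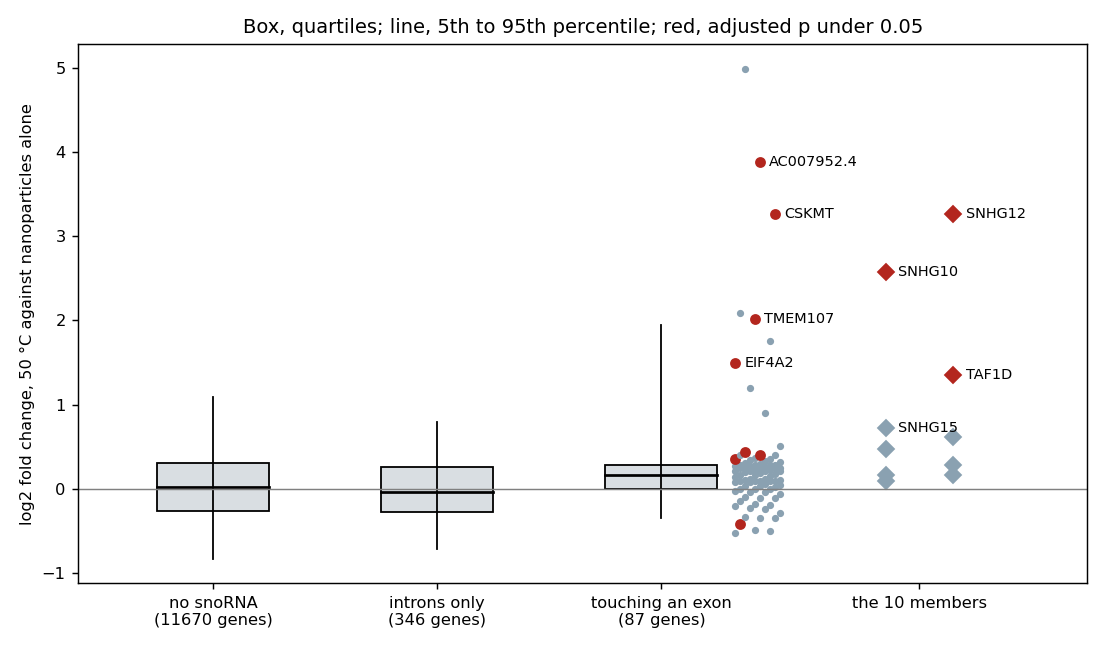
Log2 fold change at 50 °C against nanoparticles alone (vertical axis) for tested genes without a snoRNA (11670), with snoRNAs in introns only (346) and with a snoRNA touching an exon (87), and for the 10 hosts; boxes are quartiles, lines run from the 5th to the 95th percentile and points are single genes. The median is 0.17 in the 87 genes and 0.54 in the 10 hosts, which were chosen with earlier results of these data known.

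Lists of related genes were described in the same way. Of 18 tested other noncoding hosts 0 were called at 50 °C (edgeR), with a median of 0.26, and the 4 with the smallest unadjusted p (0.0187 to 0.035) were SNHG26 (1.07 ± 0.44), SNHG20 (1.76 ± 0.72), SNHG3 (0.37 ± 0.17) and SNHG4 (0.74 ± 0.34). Of 52 protein-coding hosts 5 were higher and 1 lower, with a median of 0.09. RPL12, a protein of the large ribosomal subunit, rose by 0.50. Of 17 proteins of snoRNA particles 0 were called at 50 °C, and GAR1, a core H/ACA protein, had −0.64 ± 0.18 (edgeR adjusted p = 0.0567). No gene was called at 50 °C among 16 factors of nonsense-mediated decay, 19 of nuclear RNA decay or 14 of RNA polymerase I, with medians of −0.20, 0.02 and 0.02. Between replicates, 7 of the 17 snoRNA particle proteins and 4 of the 18 other noncoding hosts were higher in replicates 3 and 4 and none lower, while of the 52 protein-coding hosts 13 were higher and 4 lower. The shares over all tested genes were 4.17% higher and 4.65% lower.

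No direct measure of RNA quality was used here, and the levels of transcripts listed as its possible signs are described. The summed level of 7 nuclear long noncoding RNAs was 1410 to 3120 CPM in untreated cells, 1370 to 2040 with nanoparticles alone, 3100 to 4410 at 46 °C, 3380 to 4660 at 50 °C and 3880 to 5010 at 54 °C. At 50 °C 2 of the 5 tested ones were called higher, MALAT1 and NEAT1, and the median log2 fold change was 0.08. That of 15 replication-dependent histone mRNAs, which lack a poly(A) tail, was 466 to 1160 CPM in untreated cells, 469 to 854 with nanoparticles alone, 721 to 1190 at 46 °C, 1120 to 1530 at 50 °C and 680 to 785 at 54 °C. At 50 °C 2 of 12 tested histone genes were called higher, with a median of 1.97. The group mean of the histone sum was highest at 50 °C (1310 CPM), where SNHG12, SNHG10 and TAF1D were highest, and its part in their rise was not tested.

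Genes on the opposite strand overlap several hosts, and the strand setting of the counting is not given in the sources used here. At 50 °C none of the tested ones was called: TRNAU1AP beside SNHG12 had 0.34 ± 0.31 and GLRX5 beside SNHG10 −0.20 ± 0.14. ZNFX1, opposite ZFAS1, was called lower at 46 °C (−0.61 ± 0.16, edgeR adjusted p = 0.0295).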

How the data were processed

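Libraries were made with a 3′ mRNA kit. The values deposited by the authors are estimated counts of each gene. Per the submitters' processing notes, STAR and Salmon were used with GRCh38. Versions, annotation and strand setting: not given in the sources used here. Between 1.74 and 2.9% of values in a library were not whole, and all were rounded. edgeR 4.0.16 (R 4.3.3) fitted 5 group means over 20 libraries by a robust quasi-likelihood model with TMM scaling, after a filter (a count of 10 in enough libraries, a total of 15) that left 12149 genes. Adjusted p-values are Benjamini-Hochberg values over these genes, called under 0.05. The difference between replicates was 1 term beside the group means. Log2 CPM used a prior count of 2. Alternatives were RLE factors, library totals, no filter, a replicate block, fits within replicates 1 and 2 or 3 and 4, fits of 2 groups, leaving out each library, and DESeq2 1.42.0. A term for replicates 3 and 4 against 1 and 2 was added after the data were seen.

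The 10 hosts and all lists were chosen with earlier results of these data known. Named genes were the 10 hosts, in each list the 4 with the smallest p at 50 and at 54 °C, and for each host the 3 most correlated genes whose CPM averaged 10 or more; others are said to be named after their values were seen. Not every called gene is reported here. snoRNA positions came from GENCODE 29, with RefSeq for those it lacks, and start windows from RefSeq. Depth bounds counting error only, since PCR copies are not independent molecules. The fit was tested on simulated data for 54 °C against nanoparticles alone over 12149 genes. There 41 of 100 genes changed 2-fold and 61 of 100 changed 4-fold were recovered with 8 false calls. Libraries at 54 °C were the deepest, and these numbers do not describe recovery in the other comparisons.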

Additional observations from a re-analysis of the deposited data

Results flagged for a closer look

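SNHG5 in replicate 4 of nanoparticles alone stood at 946 CPM, apart from 749 to 767 CPM in the other 3 libraries of that group. The gap was 0.912 of the range of the group. Chance sets apart about 1 in 20 groups, and every host was examined in 5 groups.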

How the results depend on the processing

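Leaving out each library in turn kept 3 hosts called higher at 50 °C against nanoparticles alone, 3 higher from 46 to 50 °C, 2 lower from 50 to 54 °C and 4 to 5 higher in replicates 3 and 4. Deviations of same-numbered libraries from their group means correlated at 0.05 to 0.16, and not every library correlated best with its own number. Between groups, the mean correlation was 0.1 among libraries of the same replicates (1 and 2, or 3 and 4) and −0.1 across them. Whether the numbers mark pairs was not tested. A replicate block raised the hosts called to 5 at 50 °C, 1 at 54 °C, 5 from 46 to 50 °C and 5 lower from 50 to 54 °C, and the term for replicates 3 and 4 against 1 and 2, chosen after seeing the data, gave 5, 1, 5 and 5. At 54 °C 2 hosts were called with no filter, 1 within replicates 1 and 2, 2 within replicates 3 and 4 and 1 with DESeq2. Within replicates 1 and 2, 2 were called higher at 46 °C (SNHG8 and ZFAS1), and within replicates 3 and 4, 5 were called from 46 to 50 °C. DESeq2 gave SNHG10 no adjusted p in either step between temperatures. Within replicates 1 and 2 or 3 and 4, 21 of 120 host values had the other sign, none of them a called value. Among values given above, at 46 °C SNHG12 was 0.28 within replicates 1 and 2 and ZFAS1 −0.10 within replicates 3 and 4, and at 50 °C SNHG5 was −0.03 with library totals and SNHG32 ran from −0.04 (without replicate 3 at 50 °C) to 0.31. Between replicates SNHG12 ran from −0.03 to 0.19 and SNHG1 from −0.01 to 0.11 over the libraries left out. The genes called among all tested numbered 117 at 46 °C (269 with the block, 191 with DESeq2), 148 at 50 °C (333 and 288; 81 to 124 without 1 library), 15 at 54 °C (46 and 36; 8 to 18), 145 from 46 to 50 °C (353 and 260; 95 to 137) and 24 from 50 to 54 °C (68 and 58). The causes were not tested.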
